A study of Mus musculus with 4 samples.

Results

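The endothelin system is described here through 7 genes: the ligand genes Edn1, Edn2 and Edn3, the receptor genes Ednra and Ednrb, and the converting enzyme genes Ece1 and Ece2. They were taken by symbol from the 32285 features of the count matrices, and all 7 were listed. They were chosen because Ednrb was higher in mutant than in control thymic stroma in 3 lineages, so that difference is given below as a description, with no test. The data are droplet 3′ single-cell RNA-seq counts of CD45- thymic stromal cells of untreated 6-month-old C57BL/6 mice, in 4 libraries. In 2 libraries (WT 1 and WT 2, "mock" in the sample titles) the genotype was wild type, and in the other 2 (Z/Z 1 and Z/Z 2, "mutant" in the titles) it was homozygous LacZ, an allele of Foxn1, the transcription factor that directs thymic epithelial identity. Between 10 and 15 thymi were pooled for each preparation, magnetic beads removed CD45+ cells before a sort, so a library is a pool and not a mouse. The labels give the sex both as female and as male.

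Endothelins are short peptides, first made as long precursors and released in active form after cleavage by an endothelin-converting enzyme. They act on a pair of G protein-coupled receptors: the type A receptor, encoded by Ednra, which on smooth muscle drives contraction, and the type B receptor, encoded by Ednrb, which on endothelium drives release of nitric oxide and takes up circulating peptide. Endothelin 1 is best known as a vasoconstrictor made by endothelium, and endothelin 3 with the type B receptor is best known for guiding neural crest cells.

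The ligands are close relatives, and the sequences that encode their mature peptides are printed here because they show where the 3 ligand genes differ. Each runs for 63 bases, or 21 codons, in exon 2 of 5 on the plus strand of the mouse reference (GRCm38, GENCODE vM21 annotation), at chr13:42303649-42303711 for Edn1, chr4:120161951-120162013 for Edn2 and chr2:174761749-174761811 for Edn3. Capitals mark the codons that do not encode the same residue in all 3 genes.
Edn1: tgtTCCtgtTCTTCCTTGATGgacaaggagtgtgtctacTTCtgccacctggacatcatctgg
Edn2: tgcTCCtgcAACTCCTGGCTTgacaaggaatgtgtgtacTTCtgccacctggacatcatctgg
Edn3: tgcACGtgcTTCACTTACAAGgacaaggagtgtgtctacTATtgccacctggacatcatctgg
In 15 of the 21 codons all 3 genes encoded the same residue, and 6 codons differed. Edn2 differed from Edn1 at 10 bases and 3 residues, and Edn3 differed from Edn1 at 13 bases and 6 residues. Most of the differing codons lay toward the 5′ end of the stretch, and the codons after the last capitals were the same in residue throughout. The other members lie on chromosome 8 (Ednra, 77663031 to 77724464, minus strand), chromosome 14 (Ednrb, 103814625 to 103844402, minus strand), chromosome 4 (Ece1, 137862237 to 137965229, plus strand) and chromosome 16 (Ece2, 20629828 to 20646485, plus strand).

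After filtering, 9846 cells were clustered without the members, and clusters were named from marker lists. They held 4158 thymic epithelial cells (TECs), 2736 fibroblasts (FB), 1504 endothelial cells (EC) and 807 mural cells, which are pericytes (PC) and vascular smooth muscle cells (vSMC). The libraries were uneven, from 8468086 UMIs in the called cells of WT 2 to 50705511 in Z/Z 1, and WT 2 gave only 103 TECs, 192 FB, 25 EC and 11 mural cells. WT 1 and WT 2 shared 202 called barcodes, 16.9% of those of WT 2, and Z/Z 1 and Z/Z 2 shared 249, 5.53% of those of Z/Z 2, against at most 6 between a WT and a Z/Z library. Cells with a shared barcode held 82.8% of the TEC UMIs of WT 2, 20.7% of those of WT 1, 35.6% of those of Z/Z 1 and 14.5% of those of Z/Z 2. In WT 2 they also held 63.9% of the FB UMIs, 27.9% of the EC UMIs and 39.7% of the mural UMIs. The libraries of a genotype may thus not be independent, and results are given with and without those cells. Foxn1 in TECs was 90.3 and 127 CPM (UMIs per 1000000 UMIs) in WT against 51.0 and 68.7 in Z/Z, which follows the labels. The make-up of the TECs differed: cells resembling Aire-stage medullary TECs (mTEC2-like) were 328 of 660 TECs in WT and 141 of 3498 in Z/Z. Among the clusters counted as TECs, 684 aaTEC2-like cells (the Epcam-poor age-associated type of the study) and a cluster of 261 cells led by Adam12 and Gucy1a1 had Epcam UMIs in 13.3% and 8.05% of cells, so their epithelial label rests on other markers.

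Levels are given as CPM, UMIs of a gene per 1000000 UMIs of the summed cells of a library. Edn1 was found in endothelium, epithelium and one kind of fibroblast. It was 139.5 ± 54.7 in EC, 58.6 ± 34.3 in TECs, 21.5 ± 8.02 in FB and 0.493 ± 0.592 in mural cells (mean ± SD, n = 4 libraries each). The order EC, TEC, FB, mural was tested with edgeR's quasi-likelihood test with the library as a block and Benjamini-Hochberg adjustment over all genes and all 6 pairs of lineages. These tests average over the genotypes, which differed: TECs had 93.8 and 81.4 in WT against 23.2 and 36.0 in Z/Z. EC had 147 and 63.1 against 193 and 155, and FB had 24.7 and 12.6 against 30.9 and 17.7. TECs were below EC by a log2 difference of -1.74 ± 0.42 (SE), with an adjusted p of 0.00293, but in 1 of the 4 libraries, WT 2, TECs were the higher, and the call was lost without Z/Z 2 (-1.39). TECs were above FB by 1.04 ± 0.40 (adjusted p = 0.0452), a call that was lost when any of WT 1, WT 2 or Z/Z 2 was left out (0.56 to 1.56 over the 4 omissions) or when the cells with shared barcodes were (0.23), and also at a minimum of 500 genes per cell (1.02), under 10% mitochondrial UMIs (0.94), after free RNA subtraction (1.09) and after thinning (0.56). FB in turn were above mural cells by 4.57 ± 0.86 (adjusted p = 0.000425), with the mural level resting on 0 UMIs in both WT libraries and 2 in each Z/Z library. Tested genes passed the same threshold in 49.3% of cases for TEC against EC, 53.5% for TEC against FB and 38.1% for FB against mural cells, so passing it was common.

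Within EC, the arterial cluster (aEC-like, led by Nebl and Fn1) carried the highest Edn1. In the order WT 1, WT 2, Z/Z 1, Z/Z 2 its levels were 473, 181, 554 and 535, from 25, 6, 115 and 96 cells. A capillary cluster led by Col13a1 and Esm1 had 209 and 211 in Z/Z 1 and Z/Z 2, and the venous cluster had 64.9, 159 and 93.6 in WT 1, Z/Z 1 and Z/Z 2. Where a library held at least 20 cells of a cluster, the arterial cluster was above both, and the ranges of the other clusters did not touch it. In WT this covers only the venous cluster of WT 1. The arterial 181 of WT 2, from 6 cells, was below the 209 and 211 of the Esm1 cluster. In cells thinned to 2000 UMIs, 101 of 239 arterial cells had an Edn1 UMI, 42.3% (exact 95% interval 35.9 to 48.8, counting error only), and 64.5% did before thinning. Thymocyte-like cells, which should lack it, gave 2 of 156, or 1.28%. Of the 168 such cells before thinning, 128 were WT, so here and below they say little about free RNA in Z/Z. In FB, Edn1 was nearly confined to the capsular cluster (capsFB-like, led by Pi16 and Opcml) with 77.5, 59.0, 125 and 51.5 in the 4 libraries, while the medullary cluster (medFB-like, led by Postn) stayed at or under 0.661. Among TECs, the mTEC2-like cluster held 29.2% of all Edn1 UMIs with 4.76% of the cells, and a cluster led by BC006965 and Shank2 had 79.5 and 82.2 in Z/Z 1 and Z/Z 2. That UMI share also reflects depth. After thinning, an Edn1 UMI was present in 8.79% of mTEC2-like cells, 9.35% of the BC006965 cluster and 8.06% of the aaTEC1-like cells described below.

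Edn2 and Edn3, the other ligands, were scarce and epithelial. Edn2 had 280 UMIs in all cells, and its level was 5.97 ± 2.45 in TECs and no more than 0.193 in any library of FB, EC or mural cells. TECs were the higher in 4 of 4 libraries against each of these lineages. Edn2 reached the minimum count of the fit across lineages (2.61 CPM) only through TECs, so no test of it is given there. The aaTEC1-like cells (the Epcam-positive age-associated type) held 42.5% of Edn2 UMIs at a pooled 10.8, and the basal or goblet-like cells had 125, 0, 0 and 14.3 in WT 1, WT 2, Z/Z 1 and Z/Z 2, from 6, 2, 17 and 13 cells. Edn3 was rarer still, with 164 UMIs, and 112 of them, 68.3%, came from a single cluster of 27 cells. That cluster was led by 4930469K13Rik and Rcan2, it had Foxi1, a transcription factor of ionocytes, in 81.5% of cells, and proton pump subunits Atp6v1g3 and Atp6v0d2 were among its leading genes. Its Edn3 level was 153 in the 1 cell of WT 1 and 326 and 244 in the 18 and 8 cells of the Z/Z libraries. An Edn3 UMI was present in 18 of its 27 cells, 66.7%, and in 8 of 27, 29.6% (exact 95% interval 13.8 to 50.2), after thinning, against 0 of 156 thymocyte-like cells, where 3 counts of the total, the limit that a count of 0 allows, would be 1.92% of cells with a UMI. The thymocyte-like cells were mostly WT, and Edn3 had 0 UMIs in the empty droplets of both WT libraries. Their count of 0 therefore says little about free Edn3 RNA in Z/Z. The aaTEC1-like cells held another 23.2% of Edn3 UMIs at a pooled 3.45, and EC held none. Edn3 did not reach the minimum count in the fit across lineages and has no test there.

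**Figure D1:**
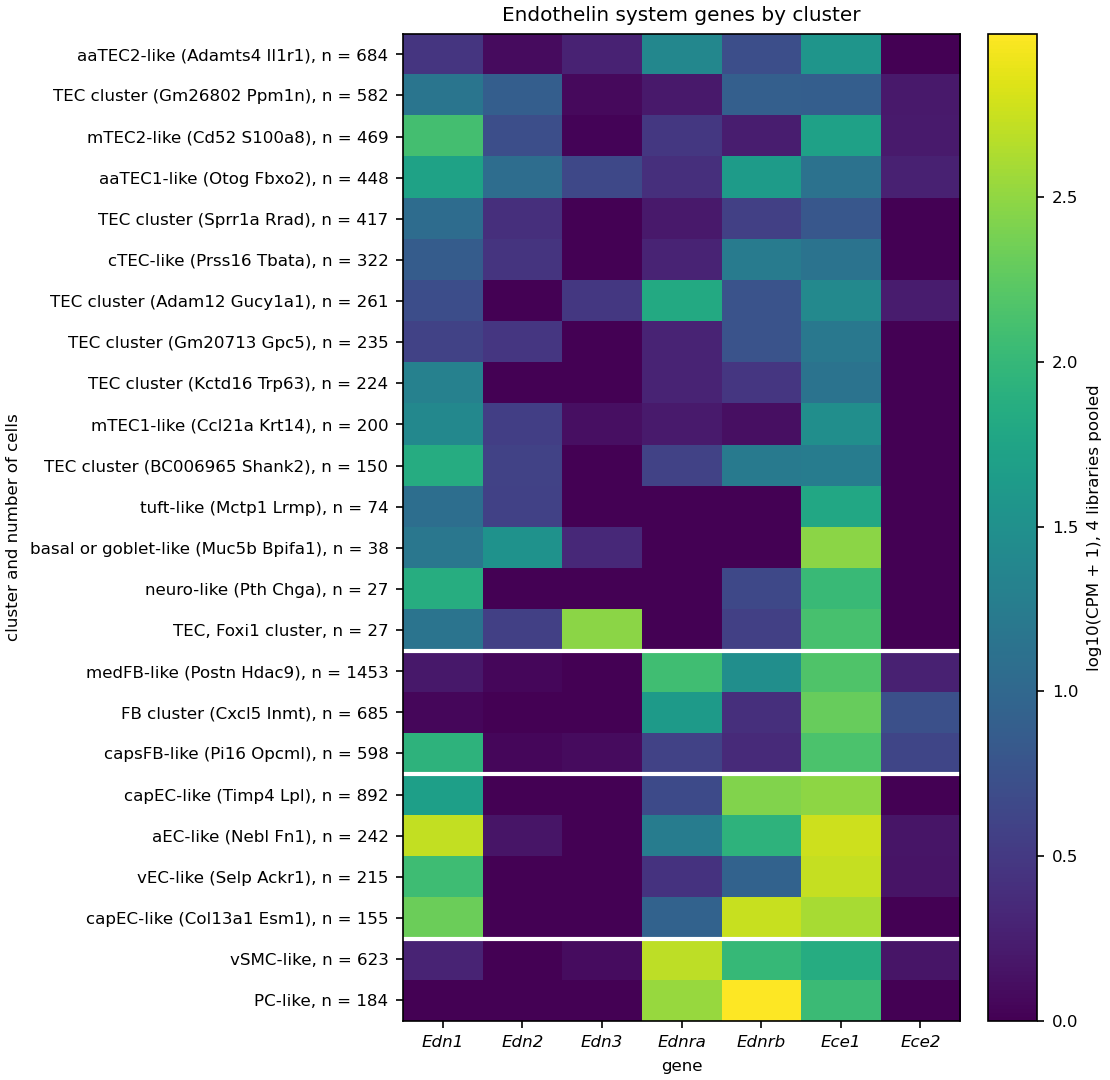
The 7 genes (columns) in 24 clusters (rows, with the number of cells), in TECs, FB, EC and mural cells from top to bottom, separated by white lines, as log10 of CPM plus 1 with the 4 libraries pooled. Ednrb is brightest in PC-like cells, Ednra in vSMC-like cells, Edn1 in aEC-like cells and Edn3 in the 27-cell cluster with Foxi1.

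Ednra, the type A receptor gene, was foremost a mural gene, with FB next. It was 543 ± 192 in mural cells, 66.1 ± 10.2 in FB, 4.12 ± 3.47 in EC and 3.68 ± 2.74 in TECs (mean ± SD, n = 4). FB were below mural cells (log2 difference -3.02 ± 0.33, adjusted p = 2e-06) and above EC (3.63 ± 0.42, adjusted p = 3.65e-06), each in 4 of 4 libraries. The neighbours EC and TEC did not differ beyond their spread (TEC minus EC -0.83 ± 0.43, adjusted p = 0.133). That last comparison turned on a few cells: 3, 1, 37 and 45 EC of WT 1, WT 2, Z/Z 1 and Z/Z 2 had UMIs of at least 3 mural markers, and without them TECs were above EC by 3.38 (adjusted p = 0.00228). Without doublet removal, in contrast, TECs were below EC (-1.90, adjusted p = 0.00282). Of all tested genes, 40.9% passed for FB against EC, 39.0% for EC against mural and 47.5% for TEC against mural cells. Within mural cells, Ednra in vSMC-like cells was 402, 886, 530 and 480 in WT 1, WT 2, Z/Z 1 and Z/Z 2, where WT 2 had only 8 such cells. In PC-like cells it was 350 in Z/Z 1 and 317 in Z/Z 2, below the vSMC-like level of the same library. In FB the medullary cluster was the highest, at 118, 80.7, 123 and 154, followed by the cluster led by Cxcl5 and Inmt at 52.4, 39.9, 46.5 and 34.2, with no overlap between the clusters. Among TECs the gene was found in the Adam12 cluster, at 70.1 in Z/Z 1 and 58.0 in Z/Z 2, and in aaTEC2-like cells, at 21.7 and 26.3. An Ednra UMI was present in 51.5% of 615 thinned vSMC-like cells (74.6% unthinned), and in 0 of 156 thymocyte-like cells.

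Ednrb, the type B receptor gene, was shared by mural cells and endothelium. Its level was 229 ± 60.3 in mural cells, 154 ± 90.9 in EC, 11.3 ± 12.1 in FB and 10.3 ± 7.37 in TECs (mean ± SD, n = 4). Mural cells were the higher against EC in 4 of 4 libraries, but the difference did not pass the threshold (EC minus mural -0.76 ± 0.42, adjusted p = 0.154). Over the 4 libraries together FB and TECs did not differ beyond their spread (TEC minus FB -0.30 ± 0.42, adjusted p = 0.602), although TECs were below FB in cells thinned to 2000 UMIs (-1.51, adjusted p = 0.00603). Their order turned with genotype, which that test averages over. In WT, TECs had 4.00 and 4.33 against 1.69 and 0.701 in FB. In Z/Z, TECs had 18.8 and 14.2 against 25.0 and 17.9 in FB. EC stood above FB in 4 of 4 libraries (FB minus EC -4.04 ± 0.44, adjusted p = 1.8e-06). In the Z/Z libraries the order by cluster was PC, then the capillary clusters, then a group of lower ones. In PC-like cells the levels were 705 and 888 in WT 1 and WT 2, from 6 and 3 cells, and 1101 and 833 in Z/Z 1 and Z/Z 2, from 108 and 67 cells. In the same Z/Z libraries vSMC-like cells had 97.9 and 93.5, so Ednrb stood high in PC while Ednra stood high in vSMC. The 2 capillary clusters were next, with 684 and 362 in Z/Z 1 and Z/Z 2 for the Esm1 cluster and 283 and 284 for the cluster led by Timp4 and Lpl. In WT 1 and WT 2 the Timp4 cluster had 145 and 71.3, against 131 and 132 in vSMC-like cells, so there it did not stand above them in both. Arterial cells had 44.3, 92.3 and 84.2 in WT 1, Z/Z 1 and Z/Z 2, overlapping the 131, 97.9 and 93.5 of the vSMC-like cells, and venous cells had 0, 4.21 and 12.97. Ednrb was thus lowest in the venous cluster among EC and Edn1 was highest in the arterial one. After thinning, 58.5% of 176 PC-like cells had an Ednrb UMI (66.8% unthinned), 44.5% of Esm1 cells did, and 0 of 156 thymocyte-like cells did. The thymocyte-like cells were mostly WT, where Ednrb in empty droplets was 4.28 and 4.46 CPM, against 44.8 and 39.1 in Z/Z. Their count of 0 therefore says little about free Ednrb RNA in Z/Z. The Timp4 cluster, being large, held most, 29.0% of all Ednrb UMIs, with 16.9% in PC-like cells and 15.6% in the Esm1 cluster.

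Ece1, the enzyme gene that completes the active peptide, had UMIs in every lineage and was highest in EC. It was 454 ± 84.0 in EC, 156 ± 18.0 in FB, 103 ± 41.3 in mural cells and 41.4 ± 24.5 in TECs. EC were above FB (FB minus EC -1.48 ± 0.29, adjusted p = 0.00061) and mural cells were above TECs (TEC minus mural -1.75 ± 0.32, adjusted p = 0.000335), each in 4 of 4 libraries. FB and mural cells did not differ beyond their spread (0.71 ± 0.31, adjusted p = 0.0734), although 6 alternatives, among them leaving out WT 2 (0.90) and the cells with shared barcodes (0.86), passed the threshold. Arterial cells again led, at 798, 603, 520 and 619 in the 4 libraries. The venous cluster, at 694, 527 and 525 in WT 1, Z/Z 1 and Z/Z 2, overlapped them. Of the TEC clusters, the 38 basal or goblet-like cells had a pooled 296, and the 27-cell Edn3 cluster 153 and 97.7 in Z/Z 1 and Z/Z 2. Unlike the receptors, Ece1 UMIs were also in 13.5% of thinned thymocyte-like cells, at a pooled 46.5. Those cells also held 371 CPM of summed EC markers, so they are no clean background for Ece1. Whether a low share of cells with an Ece1 UMI reflects expression was therefore not settled. The share in thinned TECs was lower still, at a mean of 4.75% over the 4 libraries. Ece2, the other enzyme gene, had 100 UMIs in all, and 59 of them came from the FB clusters led by Cxcl5 (pooled 4.35) and Pi16 (pooled 3.22).

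**Figure D2:**
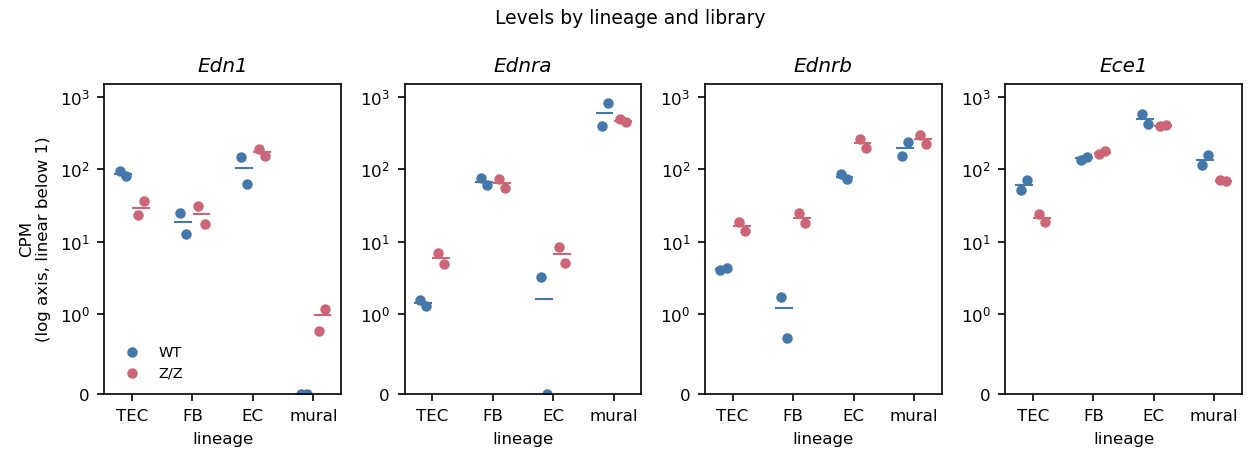
Level of Edn1, Ednra, Ednrb and Ece1 (CPM, log axis, linear below 1) in 4 lineages, 1 point per library, WT in blue and Z/Z in red, with bars at the group means. Ednra falls from mural cells to FB and then to EC and TECs, and Ednrb is high in EC and in mural cells.

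The genotype contrast asks how the stroma of the Foxn1 mutants differs from that of the controls, and the members were chosen on Ednrb for it. In TECs Ednrb was 4.00 and 4.33 in WT 1 and WT 2 and 18.8 and 14.2 in Z/Z 1 and Z/Z 2. In FB it was 1.69 and 0.701 against 25.0 and 17.9. In EC it was 85.4 and 73.7 against 263 and 195. Both Z/Z libraries were above both WT libraries in all 3 lineages, and the fitted log2 values of Z/Z minus WT were 2.15, 4.01 and 1.48. In mural cells, the lineage outside the choice, it was 151 and 243 against 297 and 225, and the groups overlapped. The FB value came from the medullary cluster, with 2.88 and 0.996 in WT against 46.7 and 68.2 in Z/Z, from 372, 141, 721 and 219 cells. An Ednrb UMI was present in 128 of its 1453 cells, 8.81%, and in 4.01% of 1448 thinned cells. Its leading genes included the pericyte marker Vtn. Postn was 875 CPM in it and 847 in PC-like cells, while Rgs5 was 20.6 against 2301. Whether pericytes within the cluster carried its Ednrb was not tested. The capsular cluster had 0 UMIs in WT and 3.38 and 0.396 CPM in Z/Z 1 and Z/Z 2, and the Cxcl5 cluster 0 UMIs and 2.93 and 0.671 CPM. In EC the Timp4 cluster had 145 and 71.3 in WT, where WT 2 had 14 cells, and 283 and 284 in Z/Z, while arterial cells overlapped at 44.3 and 121 in WT against 92.3 and 84.2 in Z/Z. In TECs the level by cluster was much alike in both genotypes in aaTEC1-like cells (35.8 and 39.8 in WT, from 15 and 10 cells, and 48.2 and 37.8 in Z/Z), and these cells were 25 of 660 TECs in WT and 423 of 3498 in Z/Z.

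Several values moved together with Ednrb in these lineages, and their part in it was not tested. The summed pericyte markers in EC were 84.3 and 73.7 in WT against 269 and 271 in Z/Z. Most of this sum was Rgs5 (72.6 and 63.1 in WT, 189 and 193 in Z/Z). The summed vSMC markers in EC went the other way, 220 and 479 in WT against 152 and 181 in Z/Z. Summed EC markers in EC were 4948 and 4161 in WT against 6068.5 and 6402 in Z/Z. Summed capillary markers in EC were 2048 and 1347 in WT against 3652 and 4066 in Z/Z. In FB the pericyte list was 321 and 394 against 641 and 343, so these groups overlapped. In empty droplets Ednrb was 4.28 and 4.46 in WT against 44.8 and 39.1 in Z/Z, while free RNA was estimated at 1.62% to 2.48% of FB UMIs, 1.82% to 3.24% of EC UMIs and 2.69% to 6.24% of TEC UMIs. Leaving out EC with mural markers gave a log2 value of 1.18 in EC, leaving out the Esm1 cluster, which held 3 WT cells, gave 1.17, and the Timp4 cluster alone gave 1.25. The medullary FB alone gave 4.62. The aaTEC1-like cells alone gave 0.16, so in TECs the difference was far smaller within that cluster than over the lineage. Without cells with shared barcodes the values were 1.87 in TECs, 3.81 in FB and 1.60 in EC.

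**Figure D3:**
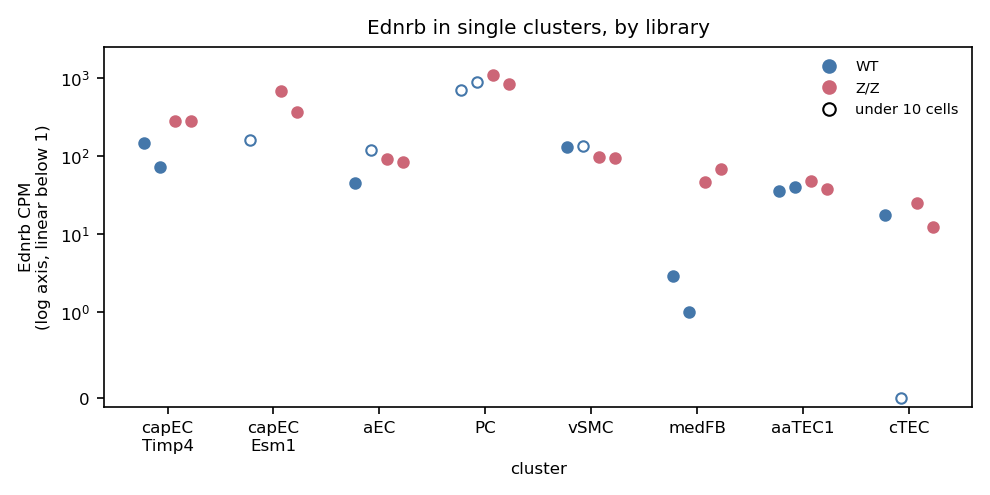
Ednrb level (CPM, log axis, linear below 1) in selected clusters, 1 point per library, WT in blue and Z/Z in red, open where a library held fewer than 10 cells. The Z/Z points lie above the WT points in medFB-like cells and in the Timp4 capillary cluster, and they overlap in aEC-like cells.

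Of the 6 other members, Edn1, Edn2, Ednra and Ece1 reached the minimum count (0.66 CPM) in TECs of both genotypes, and 3 of these 4 passed an adjusted p of 0.05 between genotypes, where 21.7% of all tested genes did (edgeR's quasi-likelihood test on UMIs summed per library). Edn1 was 93.8 and 81.4 in WT against 23.2 and 36.0 in Z/Z, and it fell with a log2 fold change of -1.43 ± 0.24 (adjusted p = 0.0175). Ece1 was 52.4 and 70.6 in WT against 24.2 and 18.6 in Z/Z, and it fell with -1.37 ± 0.25 (adjusted p = 0.0197). The ligand and the enzyme that processes it were therefore both lower in Z/Z TECs as a whole, with no overlap between groups. Ece1 was low in TECs, with a UMI in 6.34% of thinned cells in WT and 3.17% in Z/Z (means), under the share in thymocyte-like cells. In empty droplets Ece1 was 66.6 and 65.3 CPM in WT and 83.5 and 87.0 in Z/Z, while free RNA was estimated at 2.69% to 6.24% of TEC UMIs. Ednra was 1.55 and 1.30 in WT, from 19 and 3 UMIs, and 6.95 and 4.93 in Z/Z, and it rose with 2.16 ± 0.45 (adjusted p = 0.0278). Edn3 had 3 and 0 UMIs in WT against 110 and 48 in Z/Z. It reached the minimum count only through Z/Z, so no test of it is given. The ratio of the pooled levels was 20.0, a description only, since the WT side rests on 3 UMIs and most Edn3 UMIs came from a single cluster. Edn2 was 5.71 and 9.10 in WT against 5.97 and 3.1 in Z/Z, which overlapped (-0.51 ± 0.49, adjusted p = 0.485).

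These 3 calls in TECs were not stable. Without cells with shared barcodes the count of TEC genes called fell from 4084 to 1, and the log2 fold change became -1.13 for Edn1 (adjusted p = 0.455), -0.69 for Ece1 (adjusted p = 0.346) and 2.69 for Ednra (adjusted p = 0.149). All 3 were also lost without Z/Z 1, with adjusted p from 0.0711 to 0.210 and 215 TEC genes called. Without Z/Z 2, with 1481 genes called, those of Ednra (adjusted p = 0.0994) and Ece1 (0.0888) were lost, and without WT 1 that of Ednra (0.0570). The call of Ednra was lost after thinning as well (2.52, adjusted p = 0.0592). Leaving out only the copy of a shared barcode with fewer UMIs left 4060 genes called and all 3 calls past the threshold. The mix of TEC clusters moved with these values. Summed mTEC2 markers in TECs were 1053 and 1183 in WT against 184 and 292 in Z/Z, and the part of this in Edn1 was not tested over the lineage. Inside the mTEC2-like cluster, Edn1 was 146 and 124 in WT against 64.8 and 82.6 in Z/Z, from 279, 49, 60 and 81 cells, so the groups did not overlap there either. In aaTEC1-like cells Edn1 had no such split, at 67.6 and 31.0 in WT against 37.8 and 71.2 in Z/Z. For Ednra, the Adam12 cluster held 2 WT cells and 259 Z/Z cells and the aaTEC2-like cluster 11 and 673, and for Edn3 the 27-cell cluster held 1 WT cell and 26 Z/Z cells.

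In FB, EC and mural cells none of the members that could be fitted passed the threshold of edgeR's test, namely Edn1, Ednra, Ece1 and Ece2 in FB, Edn1, Ednra and Ece1 in EC, and Ednra and Ece1 in mural cells. Ednra in EC reached the minimum count only through Z/Z. The shares of all tested genes that passed were 3.13%, 2.07% and 0.0692%. At an unadjusted p under 0.05 there were 0 of these members in FB, 0 in EC and 1 in mural cells (Ece1, 114 and 156 in WT against 71.8 and 68.6 in Z/Z, -0.85 ± 0.29, adjusted p = 0.386), and DESeq2 called 0 in each. In EC, Edn1 was 147 and 63.1 in WT against 193 and 155 in Z/Z (0.52 ± 0.29, adjusted p = 0.361), which passed only when WT 1 was left out (1.60). Ece1 in EC was 578 and 426 against 396 and 414 (-0.34 ± 0.22, adjusted p = 0.428). In FB, Ednra was 75.5 and 60.3 against 73.9 and 54.7 (-0.02 ± 0.19, adjusted p = 0.967), and Ece1 was 135 and 150 against 162 and 178 (0.31 ± 0.16, adjusted p = 0.337). In mural cells, Ednra was 400 and 825 against 494 and 451 (-0.30 ± 0.33, adjusted p = 0.844). The share of cells with a UMI was also compared, but an exact permutation test of 2 against 2 libraries cannot give a two-sided p under 0.33.

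**Figure D4:**
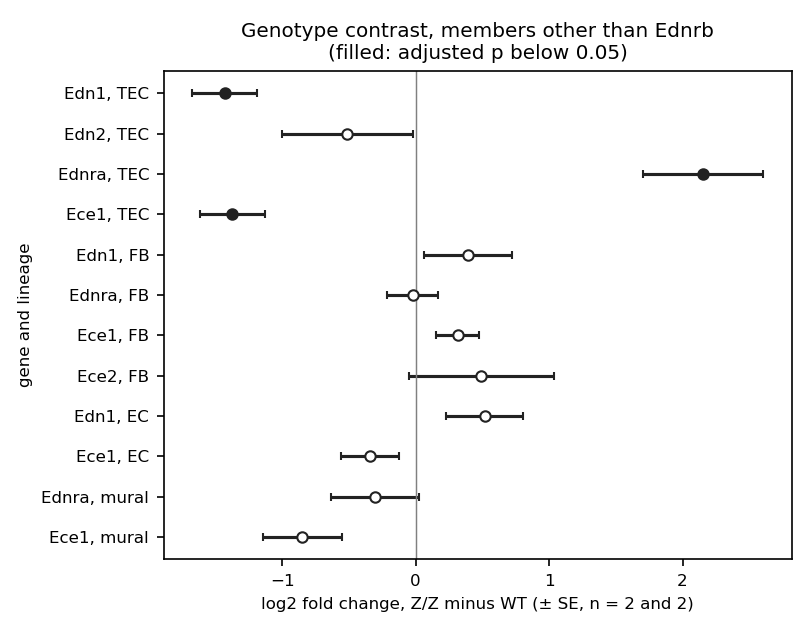
Log2 fold change, Z/Z minus WT, with its SE (n = 2 and 2 libraries) for the members other than Ednrb that reached the minimum count in both genotypes of a lineage, filled where the adjusted p was under 0.05. Filled points are 3 TEC values: Edn1 and Ece1 lie below 0 and Ednra above it.

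Whether the genotype effect differed between lineages was tested for the members other than Ednrb. The effect on Edn1 in TECs was lower than in EC by a log2 difference of -2.24 ± 0.39 (adjusted p = 0.00184) and than in FB by -1.91 ± 0.38 (adjusted p = 0.00562). The effect on Ece1 in TECs was lower than in FB by -1.71 ± 0.30 (adjusted p = 0.00158) and than in EC by -1.21 ± 0.30 (adjusted p = 0.0255). For Ednra it was higher in TECs than in FB by 2.05 ± 0.43 (adjusted p = 0.00695) and than in mural cells by 2.03 ± 0.44 (adjusted p = 0.0087). Edn1 against EC kept its call in each of the 4 omissions of a library and without the cells with shared barcodes (-2.17, adjusted p = 0.0398). Without those cells Ednra kept both calls (2.73, adjusted p = 0.00522, and 2.45, adjusted p = 0.0142), while Edn1 against FB (-1.43, adjusted p = 0.253) and Ece1 against FB (-1.02, adjusted p = 0.259) and EC (-0.70, adjusted p = 0.506) lost theirs. Calls were also lost without Z/Z 1 for Edn1 against FB, both Ednra differences and Ece1 against EC (-1.25, 1.99, 1.90 and -1.54), without Z/Z 2 for both Ece1 differences (-1.45 against FB and -1.01 against EC), without WT 1 for Ednra against FB (2.16) and without WT 2 for Ece1 against EC (-0.77). Of all tested genes, the difference passed in 5.65% for TEC against EC, 9.28% for TEC against FB, 4.72% for TEC against mural, 1.46% for FB against EC, 1.01% for FB against mural and 0.676% for EC against mural cells.

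Genes that act around the receptors were counted in 4 lists. In TECs, of 25 genes of G proteins and phospholipase C signalling, which relay the receptor signal, 10 were higher and 2 lower in Z/Z, with a median log2 fold change of 0.42 against 0.00 over all genes, of which 21.7% were called, 1858 higher and 2226 lower. Among them were Gnas, a stimulatory G protein gene (445 and 441 in WT, 1025 and 953 in Z/Z, adjusted p = 0.00899), and Gna11, a G protein gene that couples to endothelin receptors (20.5 and 21.2 in WT, 40.6 and 43.8 in Z/Z, adjusted p = 0.0137), and Prkce and Arhgef12 were also higher. Gna11 was also the only gene of this list called in EC (50.2 and 57.9 in WT, 107 and 111 in Z/Z, adjusted p = 0.0469), and Gnai1 and Plcb1 were called in FB, both higher, where 2.07% of all genes were called in EC and 3.13% in FB. Of 11 receptor regulators, which shut off G protein signals, 2 were higher and 3 lower in TECs, against the same 21.7% of all genes called. Rgs4 had 35.2 and 32.9 in WT against 261 and 243 in Z/Z (adjusted p = 0.00692), Rgs16 had 24.5 and 28.6 in WT against 5.77 and 5.65 in Z/Z (adjusted p = 0.00897), and Grk5, a receptor kinase gene, had 324 and 321 in WT against 104 and 133 in Z/Z (adjusted p = 0.00949). Grk3 was higher. In EC, where 2.07% of all genes were called, 2 of 10 were higher, Rgs4 and the pericyte marker Rgs5, which had 72.6 and 63.1 in WT against 189 and 193 in Z/Z (adjusted p = 0.0123). Of the other vasoactive receptors, 1 was higher and 5 lower of 12 tested in TECs, again beside 21.7% of all genes. Those lower included Ptger3, a prostaglandin receptor gene (33.8 and 35.5 in WT, 6.51 and 7.09 in Z/Z, adjusted p = 0.00773), Calcrl (136 and 189 in WT, 31.2 and 53.9 in Z/Z, adjusted p = 0.0183), Bdkrb2 and Bdkrb1. In FB, of 13 tested and with 3.13% of all genes called, only Adra2a, an adrenergic receptor gene, was called (35.5 and 39.6 in WT, 5.71 and 3.1 in Z/Z, adjusted p = 0.000985). Of the 9 peptidases and processing enzymes tested in TECs, 1 was higher, beside 21.7% of all genes called. In FB 1 of 6 was lower, beside 3.13%. Cma1, a mast cell chymase gene, had 4.24 and 5.20 in WT TECs and 0 and 0.277 in Z/Z. It reached the minimum count only through WT, so no call of it is counted. Mme, which encodes neprilysin and degrades endothelins, was higher in TECs (3.51 and 2.60 in WT, 8.04 and 9.14 in Z/Z, adjusted p = 0.0329) and lower in FB (47.7 and 49.4 in WT, 20.4 and 22.3 in Z/Z, adjusted p = 0.0108). The TEC calls of these lists share the limit of the members' calls, since only 1 gene was called in TECs without the cells with shared barcodes. Leaving out those cells also took the genes called from 235 to 64 in EC and from 434 to 202 in FB. The single EC and FB calls of the lists are not given for that setting.

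The genes whose pattern over clusters was most like that of a member were taken by the Pearson correlation of log2(CPM + 1) over 68 sums of a cluster in a library, from 28 clusters, among 10194 genes. The sums share libraries and depth, so these are descriptions with no p. For Ednra they were Ndufa4l2 (r = 0.88), Adap2 (0.87), Gucy1b1 (0.85), Kcne4 (0.84) and Des (0.84). For Ednrb they were Nes (0.80), Tspan12 (0.76), Dysf (0.71), Higd1b (0.70) and Isg15 (0.69). For Ece1 they were Hoxb4 (0.85), Eng (0.84), Ebf3 (0.84), Nhsl2 (0.83) and Meox2 (0.82), and for Edn1 they included Magi1 (0.71), Mmp15 (0.69), Afdn (0.68) and Limch1 (0.67). The likeness of Edn1 was the weakest of these 4 members at the first rank.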

How the data were processed

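Droplet single-cell RNA-seq had been run by the authors on CD45- thymic stromal cells in 4 libraries, 2 WT and 2 Z/Z. The authors mapped reads to mouse mm10 (GRCm38) and deposited raw UMI counts per gene and barcode, and Cell Ranger 7.01 is named in the submitters' processing notes. Sequencing saturation, deposited as a percent of reads, was 65.2 to 95.2. The members and gene lists were chosen with earlier results of these data known. The 109 ribosomal protein and haemoglobin features were left out. Of 13981 called barcodes, 10245 had more than 1000 genes and under 20% mitochondrial UMIs. Scrublet's automatic threshold marked 13 cells (0.127%), too few for a working caller, so the 3.9% with the highest score per library, 399 cells, were removed. Cells were clustered (scanpy 1.11.5, leidenalg 0.10.2, resolution 1) with the members and markers held out, without batch correction, which the study did apply. Clusters were named "-like" from marker lists, with at least 3 markers detected, or left unnamed. UMIs were summed per library and lineage, and tested with edgeR 4.0.16 (R 4.3.3, TMM, filterByExpr, quasi-likelihood F test, two-sided, Benjamini-Hochberg, threshold 0.05). Libraries, not cells, were the replicates. Whether the 2 libraries of a group came from separate mice is not stated, so p-values may measure technical spread only. Named genes were all members, of each list the called genes of lowest adjusted p, at most 4 per list and lineage, and for each of 4 members the 5 genes most like it, of which 1 is not reported here. On simulated counts 92% to 98% of 4-fold genotype changes were recovered in the 4 lineages, and 11% to 23% of 2-fold ones. Of 4-fold interactions (TEC against EC), 21% were recovered. Recovery at UMI counts as low as those of some members, or with barcodes shared between libraries, was not tested. Alternatives were DESeq2 1.42.0, no count filter, leaving out each library, other cell limits, no doublet removal, free RNA subtraction, thinning, leaving out shared barcodes, other clustering and the replicate block. Some were added after seeing the data: leaving out EC with mural markers, leaving out the Esm1 cluster, using 1 cluster per lineage, leaving out the smaller copy of shared barcodes, and leaving out shared barcodes in the test of differences between lineages. The kit is given as v2 in the labels and otherwise in the methods. Levels are on the scale of CPM and are not comparable between genes.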

Additional observations from a re-analysis of the deposited data

Results flagged for a closer look

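The genotype effect (Z/Z minus WT, log2) differed between lineages for 3 members by a test of the difference itself. For Edn1 the difference was -2.24 for TEC minus EC and -1.91 for TEC minus FB. For Ednra it was 2.05 for TEC minus FB and 2.03 for TEC minus mural cells. For Ece1 it was -1.21 for TEC minus EC and -1.71 for TEC minus FB.

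Members were also seen in cells outside the 4 lineages compared. Ednrb was 120.6 CPM in Z/Z 1 and 65.0 in Z/Z 2 in an unnamed cluster of 143 cells led by Ctnna2 and Ncam2, with 110 and 33 cells, and no WT cell fell in it. Ece1 was 146.3 in Z/Z 2 in an unnamed cluster led by Pth and Gpr132 (92 cells there), and Edn2 was 16 in the 28 mesothelial-like (MEC-like) cells of Z/Z 2. Each rested on more UMIs than a count of 0 allows and was above 1.5 times its level in the empty droplets of the same library.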

How the results depend on the processing

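The numbers of genes called moved by over 1.5 times in places. Thinning cells to 2000 UMIs gave 52 genes in EC, 193 in FB and 1 in mural cells between genotypes, and 3845 (FB against mural), 4775 (TEC against EC), 5071 (TEC against FB) and 4529 (TEC against mural) between lineages. Leaving out cells with shared barcodes gave 1 in TECs, 202 in FB and 64 in EC, no count filter gave 741 in EC, 1323 in FB and 158 in mural cells, and a minimum of 500 genes per cell gave 89 in EC and 0 in mural cells (edgeR), where the count at 1000 genes was 6. No doublet removal gave 353 in EC, DESeq2 gave 22 in mural cells, and free RNA subtraction gave 12 in mural cells and, for the difference of the genotype effect, 64 (EC against mural), 159 (FB against EC) and 108 (FB against mural). Using 1 cluster per lineage gave 12 in TECs, 226 in FB and 2 in mural cells. EC gave 103 without cells with mural markers and 83 without the Esm1 cluster. For the difference of the genotype effect, leaving out cells with shared barcodes, added after seeing the data, gave 321 (TEC against EC), 590 (TEC against FB), 329 (TEC against mural), 91 (FB against EC), 66 (FB against mural) and 31 (EC against mural). The causes were not tested.

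Leaving out 1 library gave 215 to 4121 genes in TECs, 115 to 470 in FB, 81 to 1011 in EC and 1 to 216 in mural cells between genotypes. For the difference of the genotype effect it gave 310 to 1086 (TEC against EC), 497 to 1682 (TEC against FB), 295 to 943 (TEC against mural), 102 to 285 (FB against EC), 79 to 230 (FB against mural) and 66 to 196 (EC against mural). Where an arm held 1 library, it was assumed to vary like the others.

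The log2 fold change of Ednrb moved in TECs to 3.45 (thinned), 2.36 (no doublet removal), 1.87 (no shared barcodes) and 0.16 (aaTEC1-like cells), and in EC to 0.81 (thinned), 1.18 (no cells with mural markers) and 1.17 (no Esm1 cluster). In mural cells it turned to -0.0198 (no doublet removal) and -0.39 (vSMC-like cells). Over the omissions of 1 library it was 1.92 to 2.34 in TECs, 3.75 to 4.97 in FB, 1.25 to 1.78 in EC and 0.23 to 0.80 in mural cells.

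Signs turned for Edn1 in TECs (0.0906, aaTEC1-like cells) and in FB (-0.22, thinned, and -0.0640 to 1.02 over omissions), for Edn2 in TECs (7.95, aaTEC1-like cells, with 0 WT UMIs), for Ece1 in FB (-0.0333, medFB-like cells) and in EC (-0.54 to 0.0691 over omissions), and for Ednra in FB (0.0158, no count filter, 0.45, medFB-like cells, and -0.25 to 0.17 over omissions) and mural cells (-0.67 to 0.24 over omissions), none of them past the threshold. Between lineages, Ednra for TEC minus EC turned to 0.86 (thinned) and 3.38 (no EC with mural markers), and Ednrb for TEC minus FB to 0.0296 (DESeq2) and 0.0948 (500 genes). The shares of cells with a UMI without thinning were 66.8% (Ednrb, PC), 74.6% (Ednra, vSMC), 64.5% (Edn1, aEC) and 66.7% (Edn3, 27-cell cluster).

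Replicate numbers did not pair the libraries: the correlation of same-numbered libraries' deviations was -0.0882 in TECs, -0.0367 in FB, -0.0046 in EC and -0.0398 in mural cells. With the replicate block, 2438 genes were called in TECs, 564 in FB, 369 in EC and 30 in mural cells, and Ednra in TECs (2.21, adjusted p = 0.0576) was no longer called. The libraries hold 11 to 1954 cells per lineage, so low genes in EC and mural cells of WT 2 rest on few UMIs.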
